A study of Mus musculus with 6 samples.

Results

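The 8 genes described here, Cmtr1, Fcho1, Plxnc1, Fhad1, Pitpnm1, Tmem200a, Cited1 and Arhgap36, had higher transcript levels in every optic nerve library of the obesogenic diet than in any library of the control diet. None of them encodes a neuropeptide. They are 8 of the 35850 genes listed in the table and 8 of the 14364 genes tested, and they were chosen from this same contrast of diets, so their levels by diet are given as a description, with no test. All 8 passed the filter on low values, which asked for at least 1 TPM (a unit that corrects reads for transcript length and for the size of the library) in at least 3 of the 6 libraries. Cmtr1, Fcho1, Plxnc1, Pitpnm1 and Cited1 reached that level in all 3 control libraries. Fhad1 reached it in 1 control library, Arhgap36 in 2 and Tmem200a in 0, so these 3 genes depended on the obesogenic libraries to be tested at all.

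The obesogenic group had 3 libraries from mice exposed to an AIN-76A diet that the labels describe as 58% Fat Energy/Sucrose/Red, and the control group had 3 libraries from mice on PicoLab 5053. All 6 libraries came from optic nerves of mice aged 6 weeks with GFAP-Cre, a Cre recombinase driven by the promoter of a glial filament gene, together with a floxed Nf1 allele and the Nf1 R681X allele. Nf1 encodes neurofibromin, a brake on RAS signalling, and mice of this kind form optic glioma. Every library therefore carries the tumour-prone genotype, and no library without it was analysed here. The series title calls the exposure maternal, and the labels do not say whether the libraries came from separate animals or litters, so every p-value below measures the spread between these libraries, which may be technical.

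The optic nerve carries the axons of retinal ganglion cells, whose cell bodies lie in the retina, and is built of oligodendrocytes, astrocytes, vessels and a meningeal sheath. At its brain end it meets the hypothalamus. The 8 genes have unlike jobs. Cmtr1 encodes the cap methyltransferase that methylates the ribose of the first transcribed nucleotide of an mRNA, a mark that helps the cell tell its own RNA from foreign RNA, and in human cells the gene is induced by interferon. Fcho1 encodes a membrane-bending protein that recruits the AP-2 adaptor at the start of a clathrin-coated pit. Plxnc1 encodes plexin C1, a receptor for semaphorin 7A. Pitpnm1 encodes a protein that carries phosphatidylinositol to the plasma membrane at its contacts with the endoplasmic reticulum. Cited1 encodes a transcriptional coactivator that has no DNA-binding domain and works through CBP and p300, and in the mouse hypothalamus it has been described in Pomc neurons. Arhgap36 encodes a protein of the RhoGAP family that inhibits the catalytic subunit of protein kinase A and raises Gli activity in the Hedgehog pathway. Fhad1 is named for its forkhead-associated domain, a fold that binds phosphothreonine, and Tmem200a for its membrane-spanning segments.

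RefSeq start-site windows of GRCm38.p6, from 250 bases before to 50 bases after a gene's start, were matched by symbol for all 8 genes. Where a gene had several windows, the one nearest the start of its most abundant listed transcript was used. Windows are shown for the 2 genes that were even across the obesogenic libraries (Cmtr1, Fcho1), for the gene nearest to the limit of evenness (Plxnc1), and for the 2 genes with the widest spread (Cited1, Arhgap36). Capitals mark matches to the TATA box TATAAA, the cyclic AMP response element TGACGTCA or the interferon-stimulated response element core GAAANNGAAA, each searched on both strands.
Cmtr1: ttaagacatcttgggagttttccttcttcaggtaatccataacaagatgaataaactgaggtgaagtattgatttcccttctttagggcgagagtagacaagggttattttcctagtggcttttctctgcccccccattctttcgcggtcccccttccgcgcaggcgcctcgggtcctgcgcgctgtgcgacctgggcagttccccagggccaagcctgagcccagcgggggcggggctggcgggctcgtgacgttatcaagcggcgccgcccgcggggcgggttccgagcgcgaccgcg
Fcho1: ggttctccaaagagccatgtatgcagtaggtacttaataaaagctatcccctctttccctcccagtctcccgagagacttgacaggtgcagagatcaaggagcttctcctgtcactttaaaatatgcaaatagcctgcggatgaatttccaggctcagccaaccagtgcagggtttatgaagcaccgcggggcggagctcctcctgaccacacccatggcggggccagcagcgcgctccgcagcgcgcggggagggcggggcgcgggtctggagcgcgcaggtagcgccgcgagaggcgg
Plxnc1: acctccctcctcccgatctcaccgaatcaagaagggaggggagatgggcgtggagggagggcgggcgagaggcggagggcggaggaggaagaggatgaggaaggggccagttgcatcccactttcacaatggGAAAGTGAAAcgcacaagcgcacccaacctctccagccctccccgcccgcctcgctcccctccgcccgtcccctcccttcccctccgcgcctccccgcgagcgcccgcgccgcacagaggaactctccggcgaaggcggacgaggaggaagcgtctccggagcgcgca
Cited1: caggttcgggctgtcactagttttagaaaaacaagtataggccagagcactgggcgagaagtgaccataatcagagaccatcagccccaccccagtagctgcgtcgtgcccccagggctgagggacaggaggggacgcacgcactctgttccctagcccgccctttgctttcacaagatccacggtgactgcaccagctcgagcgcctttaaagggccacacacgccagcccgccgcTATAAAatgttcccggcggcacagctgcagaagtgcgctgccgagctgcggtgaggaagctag
Arhgap36: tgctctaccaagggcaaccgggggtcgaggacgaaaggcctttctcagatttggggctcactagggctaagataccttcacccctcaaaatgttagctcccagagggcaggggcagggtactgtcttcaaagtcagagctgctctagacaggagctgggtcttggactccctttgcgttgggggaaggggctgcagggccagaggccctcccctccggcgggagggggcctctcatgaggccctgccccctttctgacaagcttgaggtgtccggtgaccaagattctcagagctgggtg

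These windows lie at chr17:29660345-29660644 on the plus strand for Cmtr1, chr8:71725632-71725931 on the minus strand for Fcho1, chr10:94944796-94945095 on the minus strand for Plxnc1, chrX:102252132-102252431 on the minus strand for Cited1 and chrX:49470200-49470499 on the plus strand for Arhgap36. The RefSeq start site on which the window is set lies 15 bases from the start of the most abundant listed transcript for Fcho1, 10 bases for Plxnc1 and 0 bases for Cited1 and Arhgap36. For Cmtr1 it lies 26461 bases from the start of Cmtr1-207, the most abundant listed Cmtr1 transcript, so the window does not describe the start of that transcript. The Plxnc1 window held 1 match to GAAANNGAAA, a pattern found in 3.44% of 32851 windows of the same length. The Cited1 window held 1 TATAAA, found in 13.6% of all windows. None of the 8 windows held TGACGTCA, which 1.79% of all windows held, and the Cmtr1 window held none of the 3 patterns. The base composition of the windows also differed among the genes. The number of CpG sites was 26 in Cmtr1, 21 in Fcho1, 30 in Plxnc1, 18 in Cited1 and 7 in Arhgap36, against a median of 7 over all windows. A match describes the letters of the window and not a bound site.

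The libraries differed in ways that touch the 8 genes. The median of 17 tested neuron and retinal ganglion cell markers stood 1.73, 0.11 and 3.14 log2 units above the control mean in obesogenic libraries 1, 2 and 3. By this median, neuronal RNA was highest in library 3, next in library 1 and near the control level in library 2. The summed level of all 18 listed markers was 439 to 2752 TPM in obesogenic libraries and 381 to 430 TPM in control libraries, and the median of 15 tested hypothalamic peptide genes had the same order (3.03, 1.00 and 4.11 log2 units). Library 2 was not free of such RNA. Of the 15 peptide genes 10, and of the 17 neuron markers 5, were above every control library in each obesogenic library. In library 2 Npy had 83.1 TPM and Pomc 35.9 TPM, against at most 9.97 and 6.63 TPM in control libraries. Obesogenic library 2 alone gave 20.6% of its listed TPM to immunoglobulin genes, against 0.0444% or less in the other 5 libraries, which lowers every other value in it. Medians of T and NK cell (3.43), B and plasma cell (3.74) and microglia (1.05) markers were also highest in library 2. Each of these medians was 0.38 log2 units or less in every other library. Meningeal fibroblast and arachnoid markers had a median log2 difference of -1.31 over 12 tested genes and endothelial markers of -0.97 over 10, and both medians were below every control library's in each obesogenic library. All 167 tested cell type markers stayed short of the limma threshold, and 31 higher and 40 lower had an unadjusted p under 0.05, against 857 higher and 718 lower of the 14364 genes tested. Markers of the labelled tissue were abundant throughout, with Mobp, a myelin gene, at 3591 to 7069 TPM in obesogenic libraries and 7833 to 11305 TPM in control libraries. Pituitary markers were uneven within both diets. The summed level of 12 listed pituitary genes was 452, 27.6 and 112 TPM in obesogenic libraries and 306, 1.8 and 6.13 TPM in control libraries. Of these, Cga alone had 378 TPM in obesogenic library 1 and 258 TPM in control library 1. In bulk RNA, fewer cells of a type and less RNA per cell cannot be told apart. Nf1 had 2.71, 1.55 and 2.92 TPM in obesogenic libraries and 3.67, 3.09 and 4.28 TPM in control libraries (log2 difference -0.48, limma adjusted p = 0.647).

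To separate genes that were even across the obesogenic libraries from those that followed neuronal RNA, the range of log2(TPM + 1) over the 3 obesogenic libraries was taken for each gene. A gene was called even where that range was under 1 log2 unit. With a wider range it was said to have the neuronal order where library 3 was highest and library 2 lowest, as for the neuron list, and another order otherwise. The order was not limited to the neuron list. Medians of hypothalamic transcription factors (1.86, 0.37 and 2.84) and peptide processing genes (2.56, 0.5 and 2.82) had it. Medians of ependymal cilia markers (0.61, 0.05 and 1.45) and clathrin pit genes (0.24, -0.07 and 0.55) had it too. Since the clathrin list holds neuronal genes such as Dnm1, these medians do not show whether the order is particular to neurons. The median of mature oligodendrocyte markers (-0.10, -0.81 and -1.04) had another order. By this rule 2 of the 8 genes were even (Cmtr1 and Fcho1), 5 had the neuronal order (Plxnc1, Pitpnm1, Fhad1, Cited1 and Arhgap36), and 1 had another order (Tmem200a). Over all genes tested, 469 (3.27%) had no overlap between diets and a log2 difference of at least 1. Of those 469 genes 22.4% were even, 63.1% had the neuronal order and 14.5% had another order, so the split among the 8 genes lay near that of all genes with such a difference. On either side of the limit, Cmtr1 had a range of 0.42 and Plxnc1 a range of 1.00 log2 units, and Pitpnm1 followed with 1.17.

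**Figure D1:**
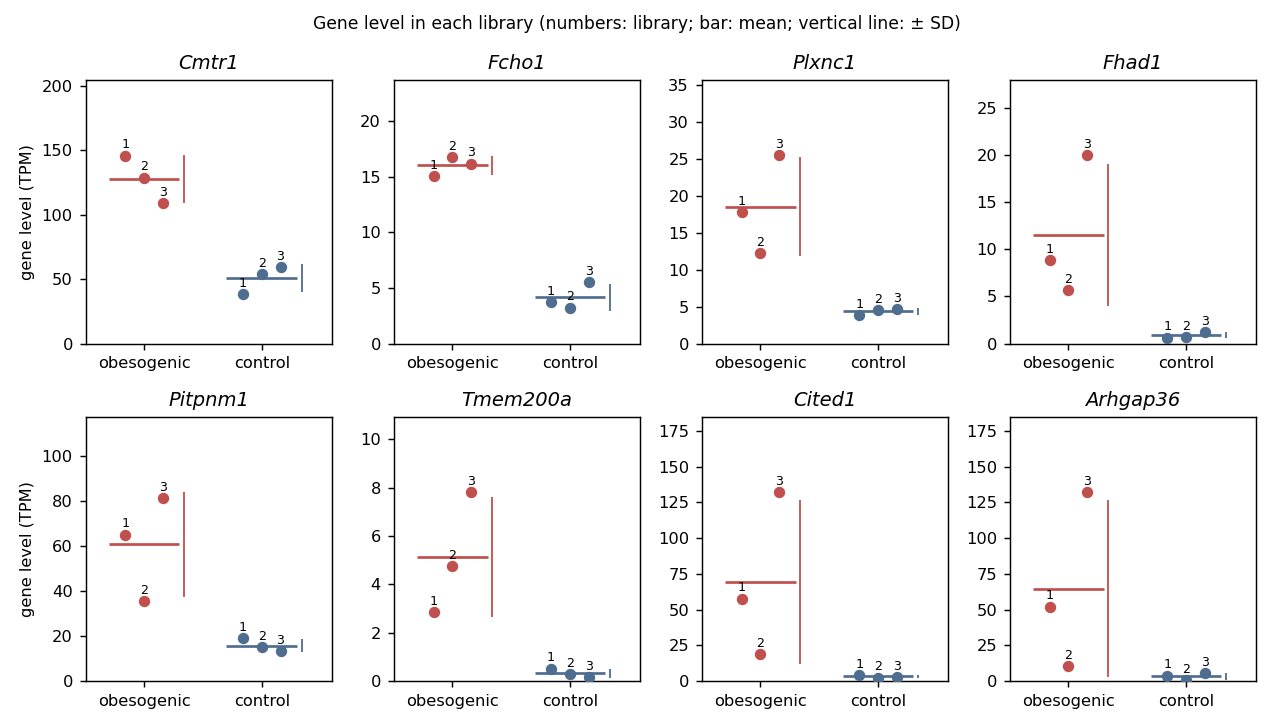
Level of each of the 8 genes in TPM (vertical axes, each from 0) in the 3 obesogenic libraries (left) and the 3 control libraries (right), with the library number beside each point, the mean as a horizontal bar and ± SD as a vertical line that stops at 0. In all 8 panels the lowest obesogenic library is above the highest control library, while the obesogenic points are close together for Fcho1 (15.1 to 16.8 TPM) and far apart for Arhgap36 (10.1 to 132 TPM).

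Summed over listed transcripts of all types, Cmtr1, the cap methyltransferase, had the highest mean level of the 8 genes in both diets. Cited1 and Arhgap36 were nonetheless above Cmtr1 in obesogenic library 3. The level of Cmtr1 was 146, 129 and 109 TPM in obesogenic libraries 1, 2 and 3, against 38.4, 54.0 and 59.6 TPM in control libraries 1, 2 and 3. The lowest obesogenic library was 1.83 times the highest control library. The means were 128 ± 18.4 TPM with the obesogenic diet and 50.7 ± 11.0 TPM with the control diet (SD, n = 3 each), a ratio of 2.52 and a log2 difference of 1.33. Its order on the deposited scale, library 1 above 2 above 3, was unlike that of the neuron list. Its highest value was not in the library richest in neuronal RNA. All 8 genes had no overlap between diets, as their choice required, which 8.88% of all genes tested showed in the same direction and 7.45% in the other. All 8 also had a log2 difference of at least 1, as did 7.13% of all genes tested.

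Other enzymes build the cap before Cmtr1 acts on it, and further proteins bind or remove it. Of 14 tested genes of cap enzymes and binders, 12 had a higher mean with the obesogenic diet and 2 of these had no overlap, with a median log2 difference of 0.18 against 0.08 over all genes tested. None of the 14 passed the limma threshold, which 0.0% of all genes tested passed in the higher and 0.00696% in the lower direction, and 1 had an unadjusted p under 0.05. That gene was Ramac, the activating subunit of the cap guanine methyltransferase, with 21.7, 17.5 and 48.7 TPM in obesogenic libraries and 0, 0.71 and 8.26 TPM in control libraries (log2 difference 3.46 ± 0.82 SE, limma adjusted p = 0.253). Rngtt, the capping enzyme that adds the guanine, had 21.2, 17.7 and 20.2 TPM in obesogenic libraries and 14.7, 12.4 and 15.8 TPM in control libraries (log2 difference 0.44, limma adjusted p = 0.514). Cmtr2, which methylates the ribose of the next nucleotide, had 5.23, 2.91 and 6.28 TPM in obesogenic libraries and 3.11, 2.81 and 2.77 TPM in control libraries, so its library 2 lay inside the control range.

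Since Cmtr1 is interferon-inducible in human cells, its values are set beside a list of interferon-stimulated genes. The median of 18 tested interferon-stimulated genes stood 0.72, 2.12 and -0.67 log2 units from the control mean in obesogenic libraries 1, 2 and 3, and none of the 18 passed the limma threshold or had an unadjusted p under 0.05. The list was highest in library 2 and lowest in library 3. On the deposited scale Cmtr1 had 146, 129 and 109 TPM in libraries 1, 2 and 3. Rescaled without immunoglobulin genes, Cmtr1 stood at 183, 195 and 138, and with median-of-ratios scaling at 127, 153 and 99.7. Under both of these scalings library 2 was its highest and library 3 its lowest. The part of interferon in the Cmtr1 difference was not tested.

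The levels of Cmtr1 came from transcripts of several kinds. The protein-coding transcripts of Cmtr1 summed to 85.3, 69.9 and 56.0 TPM in obesogenic libraries and 22.6, 32.6 and 32.3 TPM in control libraries. Their obesogenic mean was 70.4 TPM, close to the 69.6 TPM of the coding transcripts of Cited1. Cmtr1 transcripts annotated with a retained intron summed to 60.5, 59.2 and 53.0 TPM in obesogenic libraries and 14.2, 16.2 and 27.3 TPM in control libraries. Neither class overlapped between diets, and the retained-intron class took 41.5% to 48.6% of Cmtr1 in obesogenic libraries against 30.0% to 45.8% in control libraries. Cmtr1-214, the longest listed coding transcript with 2815 bases, had 23.9, 22.1 and 22.0 TPM in obesogenic libraries and 7.37, 7.68 and 9.78 TPM in control libraries, the closest agreement among obesogenic libraries of any abundant Cmtr1 transcript. Cmtr1-201, the longest coding transcript of the GENCODE M21 annotation at 6380 bases, was not analysed here, so Cmtr1 levels are sums over 16 of 17 annotated transcripts. Cmtr1 overlaps Gm28043 on the same strand and Ccdc167 on the other, and whether the quantification used strand is not given in the sources used here. The assignment of reads among them is therefore uncertain. Gm28043 had 9.37, 7.23 and 8.37 TPM in obesogenic libraries and 2.36, 3.37 and 7.37 TPM in control libraries, small beside Cmtr1 itself.

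Fcho1, the pit-initiating protein, had the smallest range over the obesogenic libraries of the 8 genes on the deposited scale. It had 15.1, 16.8 and 16.2 TPM in obesogenic libraries 1, 2 and 3, against 3.70, 3.24 and 5.52 TPM in control libraries. The means were 16.1 ± 0.86 TPM with the obesogenic diet and 4.16 ± 1.20 TPM with the control diet (SD, n = 3 each), a ratio of 3.87 and a log2 difference of 1.75. The obesogenic range of 0.14 log2 units compares with a median of 0.83 over all genes tested. Obesogenic library 2 had the lowest neuron median of the obesogenic libraries and the highest lymphocyte and microglia medians, with much immunoglobulin RNA. For Fcho1 it was the highest library rather than the lowest. The part of the immune RNA in the Fcho1 level was not tested. The range of Fcho1 was 0.40 when libraries were rescaled without immunoglobulin genes, 0.56 with median-of-ratios scaling and 0.46 with transcripts weighted by length, where Cmtr1 had 0.16. All of these count as even, but over coding transcripts alone the range was 2.84, with another order and overlapping diets.

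The gene total hid transcripts that differed from each other. The protein-coding transcripts of Fcho1 had 1.22, 6.16 and 0 TPM in obesogenic libraries and 1.89, 0.445 and 1.47 TPM in control libraries, so they overlapped between diets. Retained-intron transcripts of Fcho1 had 9.95, 4.96 and 8.54 TPM in obesogenic libraries and 1.82, 1.69 and 3.22 TPM in control libraries, with no overlap. Transcripts marked for nonsense-mediated decay had 2.10, 4.58 and 5.55 TPM in obesogenic libraries and 0, 0.757 and 0.831 TPM in control libraries. The difference in the Fcho1 total was thus carried by transcripts not annotated as coding, and the longest listed coding transcript, Fcho1-209 with 3188 bases, had 1.22, 0.694 and 0 TPM in obesogenic libraries against 1.89, 0 and 1.47 TPM in control libraries (log2 difference -0.31). Fcho1-201 was not analysed here, so the listed coding transcripts are not all the coding transcripts of the gene. Fcho1-206, marked for decay, had 0.709, 3.61 and 4.51 TPM in obesogenic libraries and was listed at 0 in all 3 control libraries.

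Other genes of clathrin pit initiation differed among themselves. Of 19 tested genes, 13 had a higher mean with the obesogenic diet and 3 of these had no overlap, with a median log2 difference of 0.14. None passed the limma threshold and 2 had an unadjusted p under 0.05. Dnm1, the neuronal dynamin that cuts the neck of the pit, had 100, 20.0 and 280 TPM in obesogenic libraries and 7.28, 6.99 and 10.8 TPM in control libraries (log2 difference 3.19 ± 0.84 SE, limma adjusted p = 0.283). Dnm1 had the neuronal order, library 3 above 1 above 2, and so differed from Fcho1 across the same libraries. Ap2b1, a subunit of the AP-2 adaptor that Fcho1 recruits, had a log2 difference of 1.01 (limma adjusted p = 0.446). Fcho2, the paralog of Fcho1, had 13.9, 16.4 and 8.80 TPM in obesogenic libraries and 17.6, 11.9 and 15.0 TPM in control libraries, so the groups overlapped (log2 difference -0.20).

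**Figure D2:**
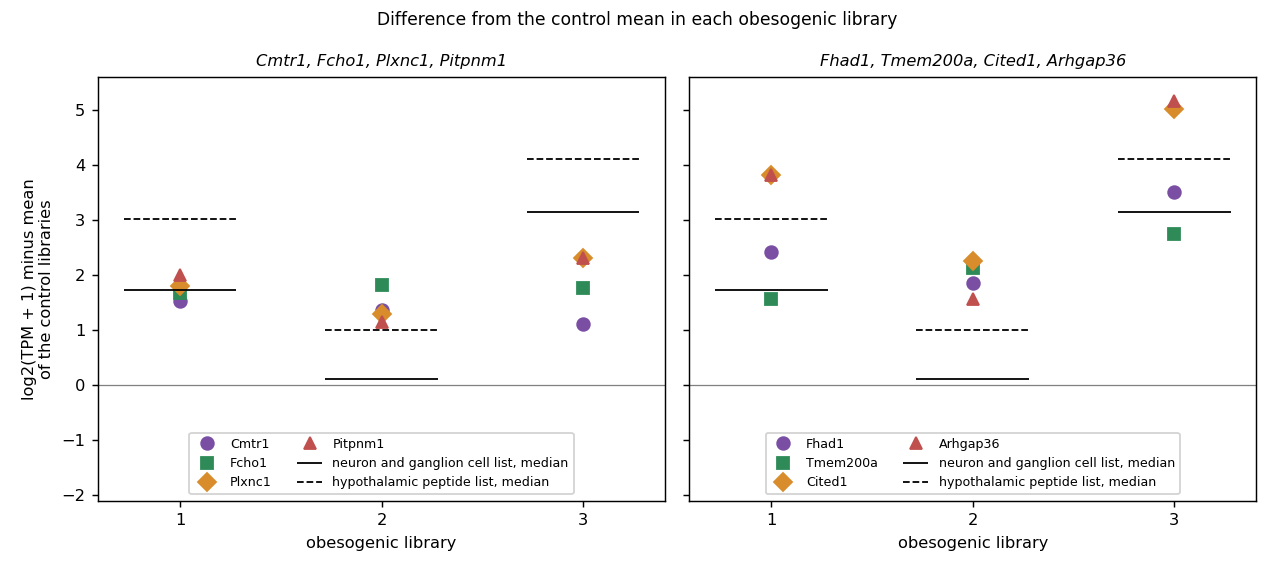
Difference of log2(TPM + 1) from the mean of the control libraries (vertical axes) in obesogenic libraries 1, 2 and 3 (horizontal axes) for 4 genes in each panel, with the medians of the neuron and retinal ganglion cell list (solid bars) and the hypothalamic peptide list (dashed bars). Cmtr1 and Fcho1 stay between 1.11 and 1.82 log2 units while the neuron median goes through 1.73, 0.11 and 3.14. All 8 genes are above the neuron median in library 2, which their choice as above every control library makes likely.

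Plxnc1, the semaphorin 7A receptor, lay at the limit between the even genes and the others. It had 17.8, 12.2 and 25.5 TPM in obesogenic libraries 1, 2 and 3, against 3.88, 4.48 and 4.71 TPM in control libraries. The lowest obesogenic library was well above the control libraries, which were close together. The means were 18.5 ± 6.66 TPM with the obesogenic diet and 4.35 ± 0.429 TPM with the control diet (SD, n = 3 each), a log2 difference of 1.81. When each library was rescaled without immunoglobulin genes the obesogenic range of Plxnc1 was 0.78, and with median-of-ratios scaling it was 0.66, so Plxnc1 counts as even under both. A single transcript, Plxnc1-201 with 7302 bases, made up most of the gene, with 16.1, 10.0 and 25.0 TPM in obesogenic libraries and 3.88, 4.14 and 4.71 TPM in control libraries. Over that coding transcript alone the range was 1.24 and the order neuronal.

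Among 10 tested plexins, neuropilins and the ligand gene Sema7a, 7 had a higher mean with the obesogenic diet and 1 of these had no overlap, with a median log2 difference of 0.15. None passed the limma threshold and 1 had an unadjusted p under 0.05. Plxna3, a plexin that acts with neuropilins in axon guidance, had 28.5, 14.4 and 30.9 TPM in obesogenic libraries and 9.16, 12.5 and 11.2 TPM in control libraries (log2 difference 1.04 ± 0.33 SE, limma adjusted p = 0.36). Plxna1 had a log2 difference of 0.70 (limma adjusted p = 0.519). Sema7a itself had 31.3, 19.0 and 15.9 TPM in obesogenic libraries and 17.4, 29.6 and 27.6 TPM in control libraries, so receptor and ligand did not move together across these libraries.

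Pitpnm1, the phosphatidylinositol carrier, had 65.1, 35.6 and 81.3 TPM in obesogenic libraries 1, 2 and 3, against 19.0, 15.0 and 13.2 TPM in control libraries. Library 2 was the lowest obesogenic library and still lay above all control libraries. The means were 60.7 ± 23.1 TPM with the obesogenic diet and 15.7 ± 2.96 TPM with the control diet (SD, n = 3 each), a log2 difference of 1.82. Pitpnm1 had the neuronal order, but rescaling without immunoglobulin genes gave a range of 0.92 and median-of-ratios scaling a range of 0.80, under which it counts as even. Most of its level came from transcripts with a retained intron, which had 47.9, 22.2 and 50.9 TPM in obesogenic libraries and 11.8, 8.38 and 8.16 TPM in control libraries. These were 62.3% to 73.5% of Pitpnm1 in obesogenic libraries and 55.9% to 62.4% in control libraries, while over the whole listed library retained-intron transcripts took 7.05% to 8.39% in obesogenic libraries and 6.69% to 7.52% in control libraries. The coding transcripts of Pitpnm1 had 10.4, 6.52 and 22.8 TPM in obesogenic libraries and 4.01, 4.35 and 3.24 TPM in control libraries, so they also did not overlap. Pitpnm1-201 was not analysed here.

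Other genes of phosphatidylinositol transfer and resynthesis lay near the rest of the genome. Of 13 tested genes, 9 had a higher mean with the obesogenic diet, 0 had no overlap, and the median log2 difference was 0.08, the same as over all genes tested. None passed the limma threshold or had an unadjusted p under 0.05. The paralog Pitpnm2 had a log2 difference of 0.03, and the single-domain carriers Pitpna and Pitpnb had 0.15 and 0.09. The smallest p-values were those of Esyt1, a tether of the same contact sites (log2 difference -0.48, limma adjusted p = 0.702), and Cds2, an enzyme of phosphatidylinositol resynthesis (log2 difference -0.37, limma adjusted p = 0.754).

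**Figure D3:**
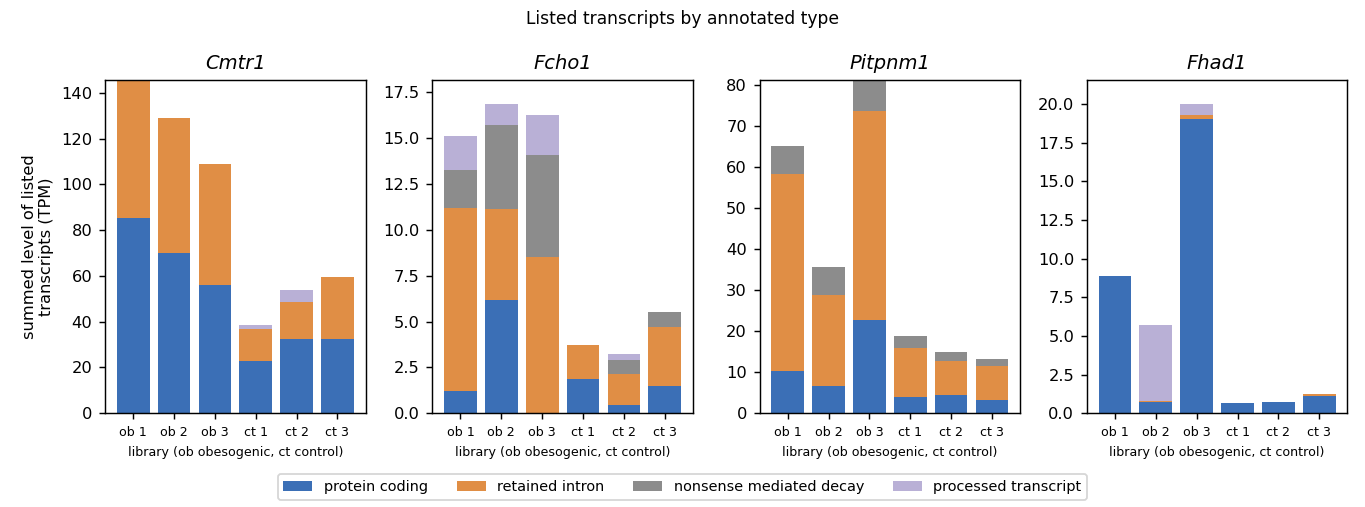
Summed TPM of the listed transcripts of Cmtr1, Fcho1, Pitpnm1 and Fhad1 (vertical axes, from 0) in obesogenic libraries (ob 1 to 3, left) and control libraries (ct 1 to 3, right). Colours give the transcript type in the deposited listing. Retained-intron transcripts are 62.3% or more of Pitpnm1 in the obesogenic libraries, the coding part of Fcho1 is listed at 0 in obesogenic library 3, and processed transcripts make up 86.0% of Fhad1 in obesogenic library 2.

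Fhad1 was low in control nerves and had 8.87, 5.68 and 20.0 TPM in obesogenic libraries 1, 2 and 3, against 0.632, 0.722 and 1.23 TPM in control libraries. The means were 11.5 ± 7.50 TPM with the obesogenic diet and 0.863 ± 0.325 TPM with the control diet (SD, n = 3 each). The log2 difference was 2.59 with a pseudocount of 1 and 3.45 with a pseudocount of 0.1, since the control level is near the pseudocount. Its order was neuronal, and its transcripts split obesogenic library 2 from the others. Coding transcripts of Fhad1 had 8.87, 0.714 and 19.0 TPM in obesogenic libraries and 0.632, 0.722 and 1.09 TPM in control libraries, so library 2 lay inside the control range. In library 2, 86.0% of Fhad1 was processed transcript (4.88 TPM), a class listed at 0 in the control libraries. The separation of the diets at the Fhad1 gene total thus rested, in library 2, on transcripts not annotated as coding. Antisense genes overlap Fhad1 in the annotation and had no values here, and without a stated strand setting reads of the 2 strands cannot be told apart.

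Tmem200a was the least abundant of the 8 genes. It had 2.85, 4.75 and 7.80 TPM in obesogenic libraries 1, 2 and 3, against 0.509, 0.279 and 0.149 TPM in control libraries. The means were 5.13 ± 2.49 TPM with the obesogenic diet and 0.312 ± 0.182 TPM with the control diet (SD, n = 3 each), a log2 difference of 2.15 with a pseudocount of 1 and 3.65 with 0.1. Its order, library 3 above 2 above 1, was neither even nor neuronal. The longest coding transcript, Tmem200a-201, had 1.70, 0.743 and 3.48 TPM in obesogenic libraries and 0.509, 0.279 and 0 TPM in control libraries, which is the neuronal order, so the order of the gene total came from its other transcripts. Its relative Tmem200b had a lower mean with the obesogenic diet, with 4.47, 9.44 and 4.79 TPM in obesogenic libraries and 16.4, 12.9 and 6.84 TPM in control libraries, and did not pass the threshold (log2 difference -0.84, limma adjusted p = 0.513).

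Cited1, the CBP and p300 coactivator, had the largest log2 difference of the 8 genes on this scale and varied over the obesogenic libraries. It had 57.7, 18.7 and 132 TPM in obesogenic libraries 1, 2 and 3, against 4.33, 2.37 and 2.88 TPM in control libraries. The means were 69.6 ± 57.7 TPM with the obesogenic diet and 3.19 ± 1.01 TPM with the control diet (SD, n = 3 each), a log2 difference of 3.70. The obesogenic libraries were 18.1, 5.87 and 41.4 times the control mean, in the order of the neuron list. Cited1 was entirely coding in the listing, and its 2 main transcripts, Cited1-201 and Cited1-202, both had the neuronal order. Cited1-201 had 26.6, 3.15 and 67.7 TPM in obesogenic libraries and 0.487, 2.00 and 1.58 TPM in control libraries. Cited1-205, a transcript of 307 bases, had 4.29, 4.03 and 7.90 TPM in obesogenic libraries and was listed at 0 in all 3 control libraries.

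The relatives and partners of Cited1 had no common direction. Of 6 tested genes, 3 had a higher and 3 a lower mean with the obesogenic diet, with a median log2 difference of -0.01, and none passed the limma threshold. With an unadjusted p under 0.05 there were 1 higher and 1 lower gene. The lower one was the paralog Cited4, with 7.46, 7.15 and 8.32 TPM in obesogenic libraries and 12.3, 13.3 and 11.8 TPM in control libraries (log2 difference -0.64 ± 0.24 SE, limma adjusted p = 0.414). The higher one was Esr1, the estrogen receptor that Cited1 can coactivate, with 2.91, 1.63 and 6.29 TPM in obesogenic libraries and 0.619, 1.23 and 0.764 TPM in control libraries (log2 difference 1.19 ± 0.44 SE, limma adjusted p = 0.414). Esr1 had the neuronal order, and Cited4 was even.

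Arhgap36, the inhibitor of protein kinase A, had the widest spread of the 8 genes. It had 52.0, 10.1 and 132 TPM in obesogenic libraries 1, 2 and 3, against 3.75, 0.727 and 5.38 TPM in control libraries. Library 3 was 40.3 times, library 1 was 15.8 times and library 2 was 3.09 times the control mean. The means were 64.8 ± 62.1 TPM with the obesogenic diet and 3.28 ± 2.36 TPM with the control diet (SD, n = 3 each), a log2 difference of 3.52 with an obesogenic range of 3.58. One transcript of 3033 bases, Arhgap36-202, made up all of the gene in 5 of the 6 libraries and 89.3% in obesogenic library 3. The spread across libraries was therefore one of level and not of transcript type.

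Genes of the Hedgehog pathway and of protein kinase A, on which Arhgap36 acts, lay near the rest of the genome. Of 13 tested genes, 7 had a higher and 6 a lower mean with the obesogenic diet, with a median log2 difference of 0.06, and none passed the limma threshold. Prkar1b, a regulatory subunit of protein kinase A, had an unadjusted p under 0.05, with 11.8, 1.88 and 14.7 TPM in obesogenic libraries and 3.36, 1.23 and 0 TPM in control libraries (log2 difference 1.97 ± 0.78 SE, limma adjusted p = 0.437). Gli1, a transcriptional target of the pathway, had 2.74, 0.646 and 2.42 TPM in obesogenic libraries and 2.15, 1.08 and 2.34 TPM in control libraries (log2 difference -0.02). Smo, the membrane transducer, had a log2 difference of -0.52 (limma adjusted p = 0.531). Of 6 tested RhoGAP genes related to Arhgap36, 5 had a higher mean, none passed the limma threshold or had an unadjusted p under 0.05, and the median log2 difference was 0.19.

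The mix of transcripts within a gene was tested as the share of each transcript in its gene total. That total also chose the 8 genes, so the shares are not free of the choice. Control totals were low for Cited1 (2.37 to 4.33 TPM) and Fcho1 (3.24 to 5.52 TPM). At such levels a minor transcript can be listed at 0. Shares of 27 transcripts of 5 genes could be tested (Cmtr1, Fcho1, Plxnc1, Pitpnm1 and Cited1). Fhad1, Tmem200a and Arhgap36 were under 2 TPM in at least 1 library and were not tested. None of the 27 shares passed the limma threshold, against 16 of 27173 over all genes (0.0589%). With an unadjusted p under 0.05 there were 3 of the 27, and 5.28% of all transcripts tested, and the smallest limma adjusted p of the 27 was 0.523. That was Cited1-205, with a share of 11.6 ± 8.56% in obesogenic libraries and 0 in control libraries (SD, n = 3 each). Fcho1-206 followed, with 18.0 ± 11.9% in obesogenic libraries and 0 in control libraries (limma adjusted p = 0.542). The share of Pitpnm1-210, a short retained-intron transcript, was 3.48 ± 2.00% in obesogenic libraries and 13.5 ± 7.58% in control libraries (limma adjusted p = 0.841). For Cmtr1 the shares of the 3 largest transcripts were close, and Cmtr1-207 held 20.0 ± 4.15% in obesogenic libraries and 20.0 ± 5.13% in control libraries. A p that misses the threshold does not show that the transcript mix was the same in both diets.

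**Figure D4:**
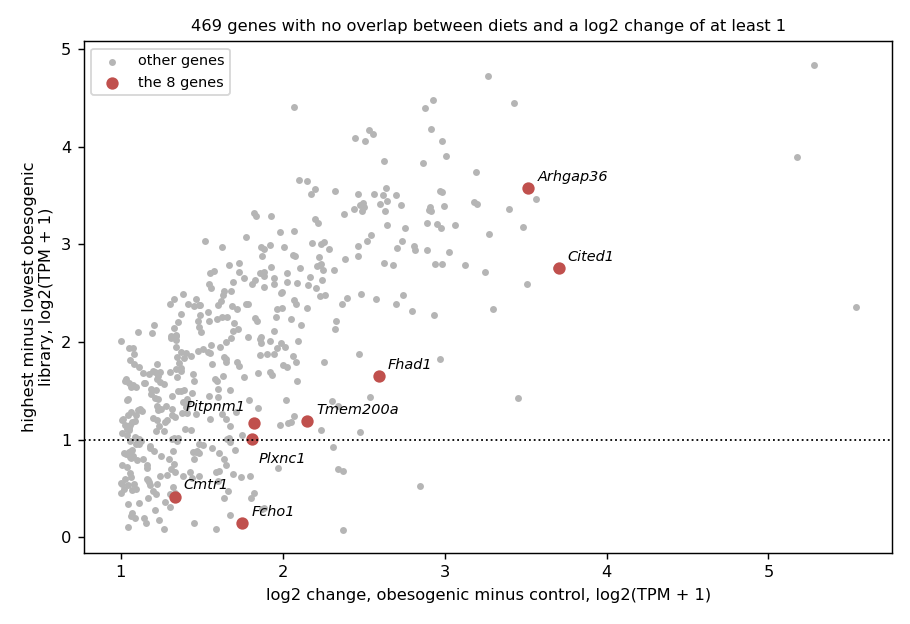
Log2 difference between diets (horizontal axis, obesogenic minus control, on the log2(TPM + 1) scale) against the range over the 3 obesogenic libraries (vertical axis, log2 units) for the 469 genes with no overlap and a log2 difference of at least 1, with the 8 genes in red and the limit of 1 for an even gene dotted. Cmtr1 and Fcho1 lie under the limit at 0.42 and 0.14, Plxnc1 on it at 1.00, and Arhgap36 highest of the 8 at 3.58.

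The genes most like each of the 8 were taken as those with the smallest root mean square difference of log2(TPM + 1), each gene set to its own control mean, over the 6 libraries among 13076 candidate genes. Nearest to Cmtr1 were Shisa6, Apex1 and Tmem229b at 0.16, 0.21 and 0.23 log2 units. Shisa6 had 2.32, 2.13 and 1.39 TPM in obesogenic libraries and 0.152, 0.223 and 0.463 TPM in control libraries. Apex1 had 8.72, 7.46 and 7.94 TPM in obesogenic libraries and 2.76, 3.24 and 3.27 TPM in control libraries. Nearest to Fcho1 were Wfs1, Cdhr4 and Rpgrip1 at 0.24, 0.24 and 0.25, and Wfs1 was listed at 0 in each control library. The nearest gene to both Plxnc1 and Pitpnm1 was Glp1r, the receptor of glucagon-like peptide, at 0.21 and 0.08, with 4.88, 2.16 and 6.92 TPM in obesogenic libraries and 0.694, 0.354 and 0.371 TPM in control libraries. For the other 4 genes the nearest profile was at 0.25 or more. Nearest to Fhad1 was Grm7, a glutamate receptor, at 0.26. Among the 3 genes nearest to Cited1 was Irs4, an insulin receptor substrate, at 0.30. Nearest to Arhgap36 was Syt5, a synaptotagmin, at 0.25, with 74.2, 19.8 and 213 TPM in obesogenic libraries and 5.89, 2.99 and 9.41 TPM in control libraries. Nearest to Tmem200a was Rspo1, a secreted enhancer of Wnt signalling, at 0.25, with 4.97, 7.35 and 19.8 TPM in obesogenic libraries and 1.48, 1.32 and 0.666 TPM in control libraries, the order of Tmem200a. These profiles share 6 libraries, and likeness over them is a description. The scale compresses the differences of low genes such as Shisa6, Wfs1 and Glp1r. A near profile therefore need not have a like ratio between diets.

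In library 2, the obesogenic library with the least neuronal RNA, all 8 genes were above every control library, as their choice required, and 22.7% of all genes tested were too, so nothing is read from that count. There the log2 difference from the control mean was 1.36 for Cmtr1, 1.82 for Fcho1, 1.30 for Plxnc1 and 1.15 for Pitpnm1. It was 1.86 for Fhad1, 2.14 for Tmem200a, 2.26 for Cited1 and 1.57 for Arhgap36, while the neuron list stood at 0.11 and the hypothalamic peptide list at 1.00. The 8 genes were thus closer together in library 2, at 1.15 to 2.26, than in library 3, where they stood at 1.11 to 5.16 log2 units. The lower levels of meningeal and endothelial markers and the neuronal RNA moved with the diets alongside the 8 genes, and their part in these differences was not tested.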

How the data were processed

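Bulk polyA RNA from mouse optic nerve was sequenced in 6 libraries, with the NucleoSpin RNA Plus XS and SMART-Seq mRNA kits per the labels' protocols. The authors deposited transcript abundances in TPM. DRAGEN, Subread, STAR 2.7.9a and featureCounts 2.0.3 are named in the submitters' processing notes, with no role given. The sources used here do not give the tool behind TPM, the build, the annotation or the strand setting. TPM keeps no depth, so no counting interval can be had, and a listed 0 can be a failed estimate.

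There were 110028 lines, 109383 transcripts and 35850 genes. Repeated lines (415 transcripts, same values) were dropped, and TPM was summed per gene over the listed transcripts. The listed values summed to 788456 to 832193 per library, and the rest of each library was not used here. Transcript types came from the deposited listing. Lengths and annotated transcripts came from GENCODE M21, which held 98.9% of the listed transcripts, and start-site windows from RefSeq (GRCm38.p6).

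Differences are obesogenic minus control on the log2(TPM + 1) scale, which understates low genes. The background fit was limma 3.58.1 in R 4.3.3 (lmFit, eBayes with trend) on 14364 genes (3 or more libraries at 1 TPM or above), with Benjamini-Hochberg adjustment over all genes tested, a threshold of 0.05 and two-sided tests. Transcript shares (arcsine square root) were fitted the same way, without trend, for 27173 transcripts with a mean share of 5% to 95% in genes with at least 2 TPM in every library. Tables were handled with Python 3.11.15 and pandas 2.3.3, figures were drawn with matplotlib 3.10.9, and both fits were tested on simulated data. The 3 nearest genes, up to 2 genes of smallest p per list, Nf1 and Gfap were named by rule, and further genes of the lists were named after their values were seen. Of the nearest genes, 1 is not reported here. The 8 genes and all lists were chosen with earlier results of these data known. Other settings tried were the pseudocount, filter and scaling, the sample number as a block, the removal of each library and, added after seeing the data, the transcripts summed and the removal of obesogenic libraries 1 and 3 together.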

Additional observations from a re-analysis of the deposited data

How the results depend on the processing

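Over all genes, 1 gene passed the threshold in the limma fit, a gene model that was lower, and the counts were 857 higher and 718 lower at an unadjusted p under 0.05. The count was 0 with no filter on low values. Leaving out each library in turn gave 0 to 914, and the 914 calls (735 higher, 179 lower) came without obesogenic library 2. With library 2 as the only obesogenic one, a setting chosen after seeing the data and with its spread assumed to be that of the control libraries, the count was 193. Of transcript shares 16 passed, against 5 with a gene minimum of 5 TPM, 4 with untransformed shares, 0 with the replicate block, and 1 to 3 when each library was left out in turn. The causes were not tested. Deviations of same-numbered libraries correlated at 0.00787, 0.177 and 0.132, and those of differently numbered libraries at -0.169 to 0.107. These values do not settle whether the sample numbers pair the libraries. With the replicate block 1 gene passed, a higher one. That block cannot move a log2 difference, since every sample number is in both diets.

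For the 8 genes, 94 alternative values of the log2 difference stayed within the spread of the libraries, 9 moved and 1 reversed. The 94 include the values with the replicate block, which cannot differ from the main ones. The one that reversed was the longest listed coding transcript of Fcho1, at -0.31. Coding transcripts alone gave 0.21 for Fcho1 and 1.95 for Fhad1, and the longest listed coding transcript gave 0.60 for Fhad1, 1.15 for Tmem200a and 1.26 for Pitpnm1. Leaving out each library gave 1.15 to 1.46 for Cmtr1, 1.62 to 1.93 for Fcho1, 2.14 to 2.96 for Fhad1, 3.05 to 4.42 for Cited1 and 2.7 to 4.49, the widest, for Arhgap36, with the last 3 genes lowest without obesogenic library 3 and highest without library 2. The class of Cmtr1 (even) and of Fhad1, Cited1 and Arhgap36 (neuronal order) was the same under all 6 alternatives run for it. Rescaling without immunoglobulin genes set the median log2 difference of all genes at 0.17, median-of-ratios scaling at 0.03, and the deposited scale at 0.08, and under none of these did a gene of the 8 overlap between diets. Depth is unknown, and levels under 1 TPM, as for Tmem200a in control libraries, limit fold changes.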

Other observations

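Gfap, whose promoter drives Cre in these mice, had 2787, 1512 and 1689 TPM in obesogenic libraries and 5157, 3486 and 2460 TPM in control libraries, with a log2 difference of -0.88 (limma adjusted p = 0.468). All 12 mature oligodendrocyte markers had a lower mean with the obesogenic diet, 5 of them with no overlap, and the median log2 difference was -0.61. In obesogenic libraries 1, 2 and 3 their median stood -0.10, -0.81 and -1.04 log2 units from the control mean. Library 1 was thus close to the control libraries in oligodendrocyte RNA. The 11 tested ependymal cilia markers had a median log2 difference of 0.68, with 0.61, 0.05 and 1.45 log2 units in obesogenic libraries 1, 2 and 3. None of these markers passed the limma threshold, and 5 lower oligodendrocyte and 2 higher cilia markers had an unadjusted p under 0.05.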
